A study of Mus musculus with 14 samples.

Results

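The NRF2 oxidative stress response was followed through 10 genes: Nfe2l2, Keap1, Nqo1, Hmox1, Gclc, Gclm, Txnrd1, Srxn1, Osgin1 and Slc7a11. Chromatin accessibility around them was measured by ATAC-seq, in which a transposase cuts and tags open DNA. An interval of the deposited tables was a member interval if its midpoint lay inside the mm10 RefSeq bounds of one of these genes, or, outside every gene, if one of them was the nearest protein-coding gene within 50000 bp. By this rule 135 of 105801 high-fat intervals and 130 of 88203 chow intervals were member intervals, and the 10 genes were among 16693 protein-coding genes with at least 1 interval. The rule used no measured value, although the genes were listed with earlier results of these data known, and every member had at least 1 interval on each diet.

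The study asked how loss of matrin-3, a DNA- and RNA-binding protein of the nuclear matrix, alters accessibility in the liver. The libraries came from 14 female mice, in 4 groups. The high-fat LKO group held 4 mice that carried floxed Matr3 and Albumin-Cre and ate a diet with 60 kcal% fat for 16 weeks from 7 weeks of age. The high-fat flox group held 4 floxed littermates without Cre on that diet. The chow LKO group held 3 mice with floxed Matr3 and Albumin-Cre that ate chow over the same weeks, and the chow flox group held 3 floxed littermates without Cre on chow. All 4 groups therefore carried the floxed allele. Albumin-Cre acts in hepatocytes, whereas nuclei came from 50 mg of frozen whole liver, so other liver cells were also measured. Whether Matr3 was deleted in any of those is not stated in the labels. The design text has the high-fat animals fasted for 12 h, and gives no feeding state for those on chow. The titles number the females singly, so each library was read as 1 animal.

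NRF2, the product of Nfe2l2, is a transcription factor that KEAP1 holds in the cytoplasm and passes to a CUL3 ubiquitin ligase for degradation. Oxidants and electrophiles modify cysteines of KEAP1, after which NRF2 accumulates, pairs with small MAF proteins and binds antioxidant response elements near its target genes. In liver this programme is known for glutathione synthesis, quinone and drug detoxification and haem breakdown. ATAC-seq reads the openness of DNA and not the amount of transcript.

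The promoter windows of the members were searched for the core of the antioxidant response element. The windows that held a match are shown here, together with the window of Osgin1, the gene with the called intervals described further on. DNA outside these windows was not searched, so a window without a match does not show that its gene lacks the element. The RefSeq promoter table, built on GRCm38.p6 (mm10), held windows for 8 of the 10 members, and none for Hmox1 and Gclc. Each window runs from 250 bases before the listed start to 50 bases after it and is written 5′ to 3′ on the gene's strand. The core was searched on both strands as TGACNNNGC, and the related AP-1 motif as TGANTCA. Runs of 9 capitals mark a core match, and runs of 7 capitals mark an AP-1 match.
Nfe2l2 (chr2:75704614-75704913, minus strand): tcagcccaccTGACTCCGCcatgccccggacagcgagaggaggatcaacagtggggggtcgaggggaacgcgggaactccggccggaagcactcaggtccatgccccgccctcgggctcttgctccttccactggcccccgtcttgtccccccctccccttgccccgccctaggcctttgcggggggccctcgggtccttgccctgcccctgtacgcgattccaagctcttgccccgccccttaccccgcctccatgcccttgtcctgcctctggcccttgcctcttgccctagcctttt
Gclm (chr3:122245307-122245606, plus strand): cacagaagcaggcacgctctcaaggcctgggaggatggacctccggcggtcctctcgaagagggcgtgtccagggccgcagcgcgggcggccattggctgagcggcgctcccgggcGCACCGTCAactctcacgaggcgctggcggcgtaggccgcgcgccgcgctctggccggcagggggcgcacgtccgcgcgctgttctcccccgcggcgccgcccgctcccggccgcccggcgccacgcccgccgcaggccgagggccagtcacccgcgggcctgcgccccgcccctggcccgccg
Srxn1 (chr2:152105274-152105573, plus strand): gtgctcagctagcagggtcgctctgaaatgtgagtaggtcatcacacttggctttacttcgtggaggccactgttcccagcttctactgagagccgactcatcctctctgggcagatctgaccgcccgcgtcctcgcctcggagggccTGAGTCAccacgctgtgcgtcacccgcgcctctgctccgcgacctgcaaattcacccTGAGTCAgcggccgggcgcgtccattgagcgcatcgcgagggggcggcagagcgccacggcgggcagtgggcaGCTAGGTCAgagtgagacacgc
Txnrd1, start at 82859206 (chr10:82858956-82859255, plus strand): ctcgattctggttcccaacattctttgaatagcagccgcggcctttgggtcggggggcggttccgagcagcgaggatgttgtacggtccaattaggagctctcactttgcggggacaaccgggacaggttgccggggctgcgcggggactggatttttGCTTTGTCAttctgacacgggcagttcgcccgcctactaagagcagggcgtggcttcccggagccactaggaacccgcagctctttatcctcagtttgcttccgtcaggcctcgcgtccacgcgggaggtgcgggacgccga
Osgin1 (chr8:119436897-119437196, plus strand): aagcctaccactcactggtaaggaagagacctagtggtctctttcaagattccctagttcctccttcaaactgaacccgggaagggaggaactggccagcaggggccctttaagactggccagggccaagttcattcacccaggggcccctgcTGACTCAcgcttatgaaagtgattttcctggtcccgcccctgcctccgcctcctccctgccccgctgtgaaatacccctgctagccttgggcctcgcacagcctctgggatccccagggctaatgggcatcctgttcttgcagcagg

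The core matches read TGACTCCGC in Nfe2l2 on the gene's strand, and TGACGGTGC in Gclm, TGACCTAGC in Srxn1 and TGACAAAGC in Txnrd1 on the opposite strand. The window of Osgin1 held no match to the core as searched and 1 AP-1 match, TGACTCA, whose first base lay 97 bases before the start. The window of Srxn1 held 2 AP-1 matches. No match to the core as searched overlapped an AP-1 match. Forms of the core that begin with TGAG were not searched. With its neighbouring bases, the Osgin1 AP-1 match reads TGAGTCAGC on the opposite strand. The Srxn1 AP-1 match nearer the start reads TGAGTCAGC on the gene's strand. Among all 32851 promoter windows of this length, 12.4% held the core and 7.81% held the AP-1 motif, so a match in a member's window is a description of its letters. Each of the 5 windows shown overlapped at least 1 interval on both diets.

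Reads in intervals totalled 7.59 to 10.4 M per high-fat library and 15.5 to 35.0 M per chow library, and the chow libraries numbered 2 were the shallowest of both genotypes. Over member intervals, a library held between 10 and 618 reads per interval on the high-fat diet (median 65) and between 33 and 4555 on chow (median 296). The libraries do not all follow genotype: on the second principal component of the high-fat table, flox 3 and flox 4 stood at 82.6 and 60.0, while the other flox and the LKO libraries lay between -47.4 and 0.96. On the first component of the chow table, LKO 2 and flox 2 stood at -44.7 and -92.0, and the other libraries between -4.79 and 63.0. All 8 hepatocyte marker genes, among them Alb, Apob and Hnf4a, had intervals on both diets. Accessibility summed over the 7 intervals of Matr3 was 77.0 to 86.3 CPM in high-fat LKO livers and 74.3 to 105 CPM in high-fat flox livers, where CPM is an interval's count scaled to the TMM-adjusted total of its library. On chow it was 89.3 to 95.2 CPM in LKO livers and 95.7 to 99.1 CPM in flox livers. Which part of the gene was deleted is not stated in the labels, and accessibility does not measure the protein, so these values do not check the knockout.

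On the high-fat diet, member intervals lay mostly below their flox level in LKO livers, and the difference passed the test at 2 of the 28 intervals of Osgin1. Of 135 member intervals, 2 were called, both lower in LKO livers and both in Osgin1, which encodes an oxidative stress-induced growth inhibitor. Called here means a Benjamini-Hochberg adjusted p under 0.05 over all intervals in edgeR's quasi-likelihood test. Over the whole high-fat table, edgeR called 795 of 105801 intervals, or 0.751%, and 321, or 0.303%, were called lower in LKO livers. At an unadjusted p under 0.05, 28 member intervals were lower and 0 were higher in LKO livers, where all intervals gave 4.8% lower and 5.41% higher. The 28 belonged to Osgin1 (12), Gclc (7), Nfe2l2 (5), and Keap1, Hmox1, Gclm and Txnrd1 (1 each). The median log2 fold change of LKO over flox was -0.16 over member intervals and -0.004 over all intervals, and 97 of the 135 members (71.9%) were below 0, against 50.6% of all intervals. Osgin1 held 25 of the 97, Gclc 24 and Nfe2l2 23, while Keap1, Nqo1, Hmox1 and Slc7a11 had no majority below 0. In 7 member intervals every LKO library lay below every flox library, and in 1 every LKO library lay above, where all intervals gave 2.5% and 2.8%. These counts treat neighbouring intervals of 1 gene as separate, although they come from the same libraries. An interval's name gives the genotype whose peaks it came from. Of the 135 member intervals 90 were named for the floxed peaks and 45 for the knockout peaks, where all intervals gave 53410 and 52391. For Osgin1 these were 22 and 6. The part this has in the lean below 0 and in the calls was not tested. Leaving out 1 library changed the count of 2 called members to 0 without LKO 3, LKO 4, flox 3 or flox 4, 1 without LKO 1, 5 without LKO 2, 7 without flox 1 and 4 without flox 2, all of them lower in LKO livers and all in Osgin1 or Gclc.

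On chow, 0 of 130 member intervals were called by edgeR and 0 by DESeq2. Over the whole chow table edgeR called 20 of 88203 intervals, or 0.0227%, and 126 with the library number as a block. At an unadjusted p under 0.05 in edgeR, 13 member intervals were higher in LKO livers, all of Gclc, and 7 were lower, all of Osgin1. All intervals gave 3.0% higher and 3.77% lower. In 10 member intervals every LKO library lay above every flox library and in 3 every LKO library lay below, against 5.63% and 6.04% of all intervals. The median log2 fold change was 0.10 over member intervals and -0.003 over all intervals. Here 78 member intervals were named for the knockout peaks and 52 for the floxed peaks, where all intervals gave 44011 and 44192. The part this has in the chow median was not tested.

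**Figure D1:**
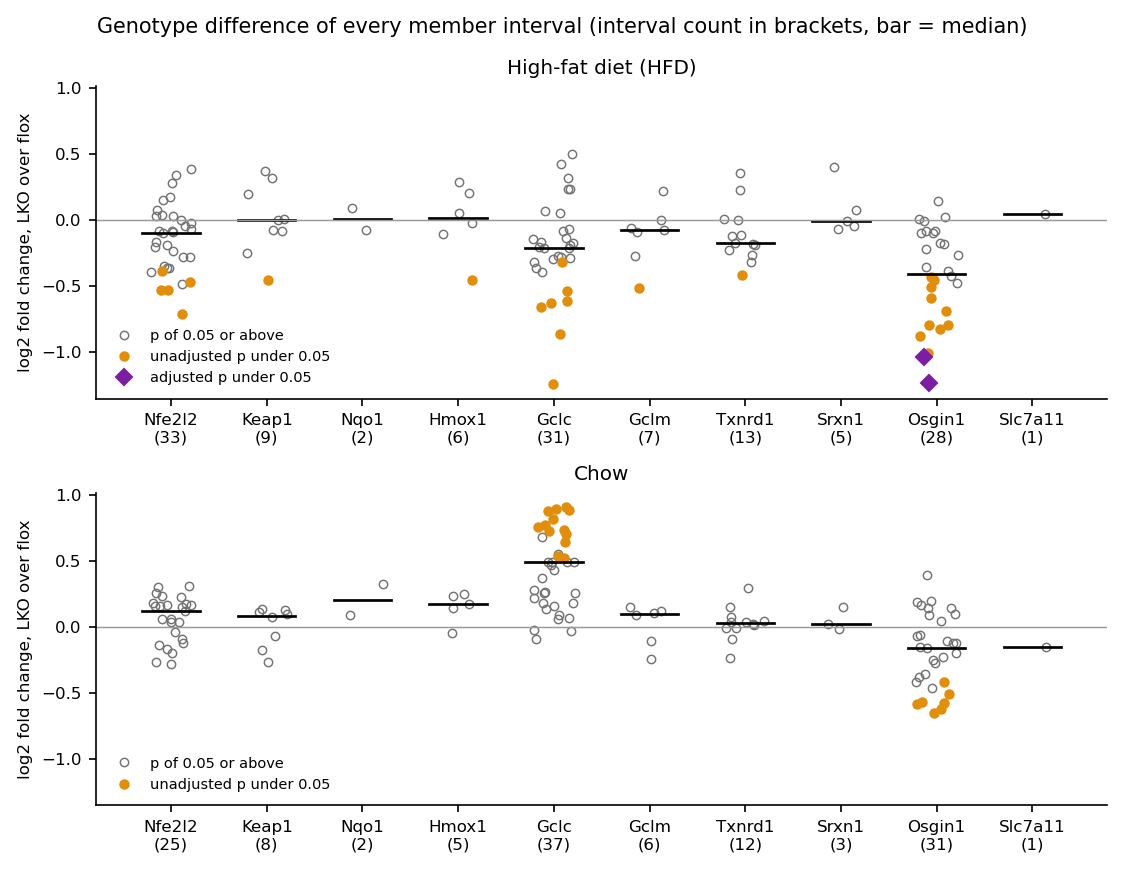
Log2 fold change of LKO over flox for each member interval, by gene, on the high-fat diet (top, n = 4 per genotype) and chow (bottom, n = 3 per genotype). Open points have an unadjusted p of 0.05 or above, filled points are under 0.05, diamonds are called, and bars are medians; the Gclc points lie mostly below 0 on the high-fat diet and above 0 on chow, and both diamonds are Osgin1 intervals.

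Counts summed over all intervals of a gene gave 1 test per gene. By summed counts 0 of 10 members were called on the high-fat diet by edgeR and 0 by DESeq2, with 2 members, Osgin1 and Gclc, at an unadjusted p under 0.05. All genes gave 56 calls of 16276, or 0.344%. On chow 0 of 10 members were called by either tool, with 1, Gclc, at an unadjusted p under 0.05, and all genes gave 0 calls of 15928, or 0.0%. Of the 10 summed values 8 were below 0 on the high-fat diet and 2 above, and on chow 2 were below and 8 above. All genes gave 8194 of 16276 below 0 on the high-fat diet and 8167 of 15928 on chow. With 1 library left out, the sums of Keap1, Srxn1 and Slc7a11 changed sign on the high-fat diet. On chow those of Gclm, Keap1, Osgin1 and Txnrd1 did. In bulk liver, fewer cells of a type and less accessibility per cell cannot be told apart in any of these values.

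**Figure D2:**
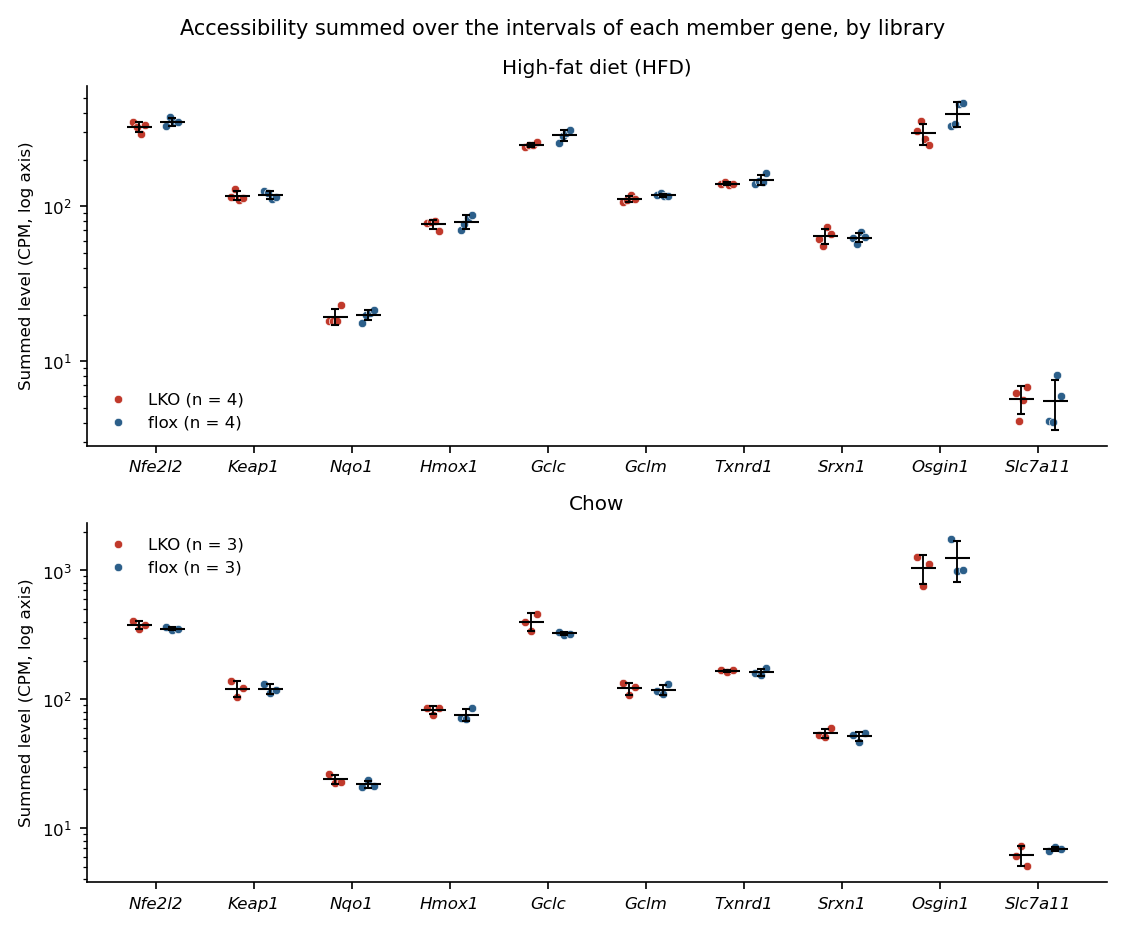
Accessibility summed over the intervals of each member (CPM, log axis) by library, LKO left of flox, on the high-fat diet (top) and chow (bottom); black bars are the mean and SD. For Osgin1 on the high-fat diet 2 flox libraries lie above the rest, for Gclc on chow every LKO library lies above flox, and Slc7a11, with 1 interval, has the lowest level on both diets.

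Levels can be set beside each other per interval, since every interval is 501 bp wide. In the high-fat table Gclm had the highest mean level per interval, 16.4 CPM, and Slc7a11 the lowest, 5.63 CPM, with the other 8 members between 8.66 and 13.1 CPM. On chow Osgin1 was highest at 37.1 CPM per interval. The interval with the highest level of a member lay at its listed start, or covered the lower-coordinate end of the gene where no start was listed, in 9 of 10 members on the high-fat diet and 8 of 10 on chow. The exceptions were Slc7a11 on both diets, whose interval lay 61.9 kb into the gene, and Osgin1 on chow. Over 13 high-fat intervals at such sites the log2 fold change ran from -0.18 to 0.17, and over 12 chow intervals from -0.11 to 0.29, with none called. These lay within 500 bp of a listed start or, for Gclc and Hmox1, covered the lower-coordinate end. The listed start of Osgin1 lies inside its bounds, and its lower-coordinate end was not counted. The interval there had -0.42 on chow (SE 0.15, edgeR adjusted p = 0.638) and -0.26 on the high-fat diet (SE 0.17, edgeR adjusted p = 0.655).

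Among the regulators, Nfe2l2 itself had no called interval on either diet, and on the high-fat diet its start interval lay above 0 and its interval of smallest p below 0. The start interval (chr2:75704381-75704881) stood at 66.3, 51.8, 61.0 and 60.2 CPM in high-fat LKO livers and at 48.8, 57.0, 52.8 and 53.7 CPM in high-fat flox livers. LKO 2 lay within the flox range and the other 3 LKO libraries above it. The log2 fold change was 0.17 (SE 0.095, edgeR adjusted p = 0.562). On chow the same site (chr2:75704339-75704839) stood at 72.2, 70.8 and 78.0 CPM in LKO livers and 60.9, 66.3 and 69.8 CPM in flox livers. There every LKO library lay above every flox library, with a log2 fold change of 0.17 (SE 0.10, edgeR adjusted p = 0.774). Inside the gene, 12.4 kb after the start, the interval chr2:75692043-75692543 stood at 4.83, 5.29, 3.92 and 4.80 CPM in high-fat LKO livers and 5.96, 8.29, 7.66 and 8.99 CPM in high-fat flox livers. All 4 LKO libraries lay below all 4 flox libraries, and the log2 fold change was -0.71 (SE 0.21, edgeR adjusted p = 0.139). On chow that site (chr2:75692014-75692514) stood at 8.11, 7.71 and 6.48 CPM in LKO livers and 7.70, 8.93 and 4.93 CPM in flox livers, a log2 fold change of 0.06 (SE 0.23, edgeR adjusted p = 0.963), and 17 of the 25 chow intervals lay above 0. The smallest chow p of Nfe2l2 was 0.482 kb before the start, at chr2:75704895-75705395, which averaged 57.2 ± 5.34 CPM in chow LKO livers and 48.7 ± 2.75 CPM in chow flox livers (SD, n = 3 each; 0.23, SE 0.11, edgeR adjusted p = 0.747). Summed over 33 intervals, Nfe2l2 gave 295 to 349 CPM in high-fat LKO livers and 330 to 376 CPM in high-fat flox livers (log2 fold change -0.11, SE 0.079, edgeR adjusted p = 0.693). On chow its 25 intervals summed to 353 to 404 CPM in LKO livers and 346 to 362 CPM in flox livers (0.10, SE 0.093, edgeR adjusted p = 0.758).

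Keap1, the repressor of NRF2, differed little in sum. Its 9 high-fat intervals summed to 111 to 129 CPM in LKO livers and 112 to 126 CPM in flox livers, and its 8 chow intervals to 104 to 137 CPM in LKO livers and 112 to 132 CPM in flox livers. The log2 fold changes were -0.02 (SE 0.072) and 0.01 (SE 0.11), with edgeR adjusted p of 0.966 and 0.983. The start interval of Keap1 averaged 21.2 ± 2.63 CPM in high-fat LKO livers and 22.3 ± 1.33 CPM in high-fat flox livers (SD, n = 4 each; log2 fold change -0.08), and 23.1 ± 3.51 CPM in chow LKO livers and 21.2 ± 2.18 CPM in chow flox livers (SD, n = 3 each; 0.13). The interval with its smallest p was the same site on both diets, about 3.8 kb into the gene. It stood at 12.1, 11.6, 7.18 and 10.7 CPM in high-fat LKO livers and 18.5, 16.7, 10.6 and 11.2 CPM in high-fat flox livers (log2 fold change -0.45, SE 0.19, edgeR adjusted p = 0.384). Flox 1 and flox 2 were the high libraries there, and the groups overlapped. On chow it stood at 17.9, 12.0 and 11.9 CPM in LKO livers and 16.6, 18.2 and 15.9 CPM in flox livers (-0.27, SE 0.18, edgeR adjusted p = 0.781).

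Gclc encodes the catalytic subunit of glutamate-cysteine ligase, the rate-limiting enzyme of glutathione synthesis, and the sign of its genotype difference was opposite on the 2 diets. High-fat livers had 24 of its 31 intervals below 0 (median -0.21), and chow livers 34 of its 37 above 0 (median 0.49). Its summed level was 243, 250, 248 and 259 CPM in high-fat LKO livers and 256, 283, 297 and 310 CPM in high-fat flox livers. LKO 4 exceeded flox 1, and the other LKO libraries lay below all flox libraries. The log2 fold change was -0.20 (SE 0.077, edgeR adjusted p = 0.370). On chow it was 402, 339 and 463 CPM in chow LKO livers and 335, 317 and 321 CPM in chow flox livers. Every LKO library lay above every flox library, and the smallest gap was between LKO 2 and flox 1. The log2 fold change was 0.31 (SE 0.12) and did not pass the test (edgeR adjusted p = 0.718), and without chow LKO 3 it was 0.19.

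Along Gclc the interval covering the lower-coordinate end had small differences, with intervals mostly of the same sign on both sides of it. On the high-fat diet 12 of 14 intervals inside the gene were below 0 (median -0.28), 4 of them with an unadjusted p under 0.05, and 12 of 13 before the lower-coordinate end were below 0 (median -0.21), 3 of them at that p. The interval covering that end (chr9:77754320-77754820) averaged 26.9 ± 3.20 CPM in high-fat LKO livers and 28.5 ± 5.54 CPM in high-fat flox livers (SD, n = 4 each), a log2 fold change of -0.08 (SE 0.13). On chow the interval covering that end (chr9:77754347-77754847) stood at 37.7, 28.9 and 41.6 CPM in chow LKO livers and 35.2, 31.9 and 36.2 CPM in chow flox livers, a log2 fold change of 0.07 (SE 0.14). All 20 chow intervals inside the gene were above 0 (median 0.66), and 11 of them had an unadjusted p under 0.05, while 11 of 13 before the lower-coordinate end were above 0 (median 0.26), 1 of them at that p. The smallest p was at chr9:77766711-77767211, with 7.17, 8.03 and 11.2 CPM in chow LKO livers and 5.78, 4.95 and 3.73 CPM in chow flox livers. The genotypes did not overlap there, and the log2 fold change was 0.88 (SE 0.24, edgeR adjusted p = 0.390). All 4 intervals beyond the upper-coordinate end were above 0 on the high-fat diet, and 3 of 4 were on chow.

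One site in the body of Gclc, about 15 kb from that end, had the smallest high-fat p of the gene. At chr9:77769637-77770137 the level was 1.07, 4.19, 1.83 and 1.26 CPM in high-fat LKO livers and 2.14, 4.68, 7.41 and 5.88 CPM in high-fat flox livers. LKO 2 stood within the flox range and the other 3 LKO libraries below it, with a log2 fold change of -1.24 (SE 0.38, edgeR adjusted p = 0.140). On chow the same site (chr9:77769636-77770136) stood at 4.51, 4.70 and 8.99 CPM in LKO livers and 3.54, 4.44 and 2.08 CPM in flox livers. There LKO 3 was the high library and the genotypes did not overlap, with a log2 fold change of 0.89 (SE 0.34, edgeR adjusted p = 0.674).

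**Figure D3:**
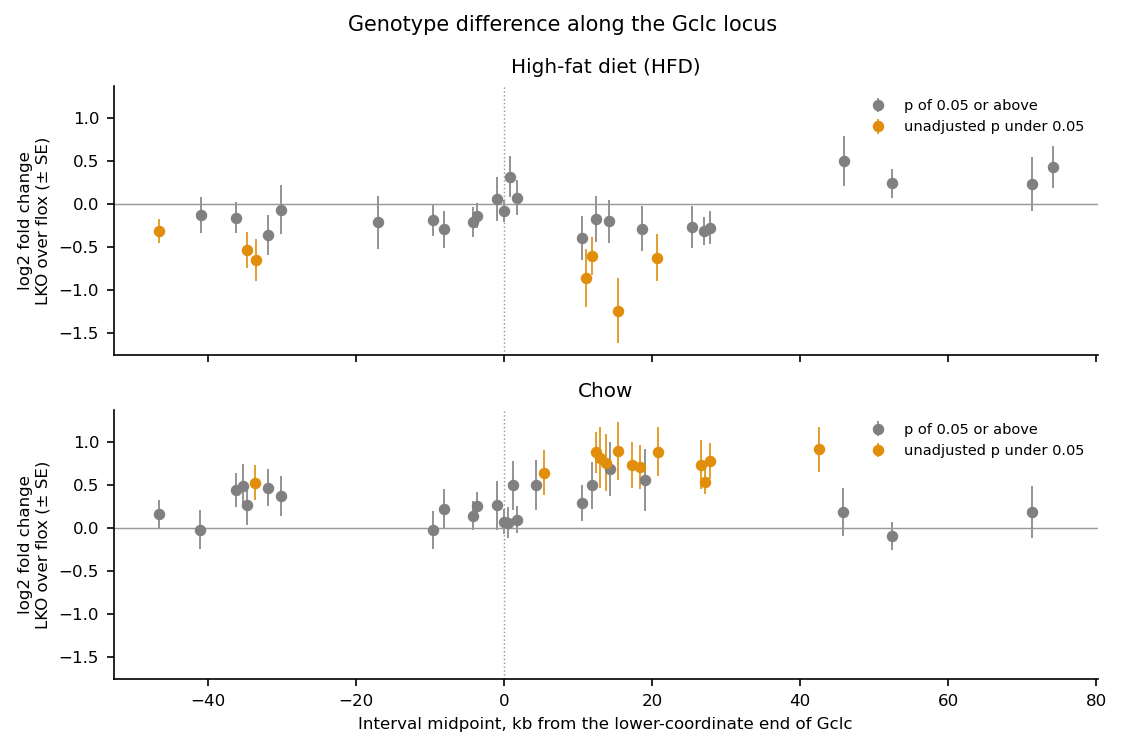
Log2 fold change of LKO over flox (± SE) for each Gclc interval against the distance of its midpoint from the lower-coordinate end of the gene, on the high-fat diet (top) and chow (bottom). Orange points have an unadjusted p under 0.05: 7 on the high-fat diet, all below 0, and 13 on chow, all above 0; no interval was called on either diet.

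The genotype effect on the high-fat diet was tested against that on chow on 73945 intervals present in both tables with at least 50% overlap, 108 of them member intervals. Feeding state, depth and table go with diet, so they cannot be told apart from it in this difference. By edgeR 0 of 108 were called, and 16 (14.8%) had an unadjusted p under 0.05, where all matched intervals gave 0.183% called and 7.44% at that p. Gclc held 13 of the 16, Nfe2l2 2 and Hmox1 1. The interval with the smallest p, chr9:77781371-77781871 in Gclc, stood at 10.9, 10.1, 9.14 and 9.85 CPM in high-fat LKO livers and 12.0, 13.6, 11.4 and 13.0 CPM in high-fat flox livers. The chow counterpart stood at 16.5, 15.9 and 19.3 CPM in LKO livers and 12.2, 11.7 and 11.8 CPM in flox livers. LKO lay wholly below flox on the high-fat diet and wholly above it on chow, and the difference between the effects was -0.83 on the log2 scale (SE 0.20, edgeR adjusted p = 0.123). For Gclc as a whole the difference between effects was -0.44 (SE 0.13, edgeR adjusted p = 0.356), and by summed counts 0 of 10 members were called, with 1, Gclc, at an unadjusted p under 0.05, while all genes gave 0.0327%. Of the 27 matched Gclc intervals, 19 were below 0 on the high-fat diet and above 0 on chow. Over all members this held for 45 of 108 (41.7%), and over all matched intervals for 25.2%. The genotype whose peaks gave an interval moved the same way: of the high-fat Gclc intervals 7 were named for the knockout and 24 for the floxed peaks, and of the chow ones 32 were named for the knockout and 5 for the floxed peaks, and the part this has in the difference was not tested. Leaving out 1 library made at most 1 member interval pass, a Gclc interval each time (chr9:77769637-77770137 without high-fat LKO 2, adjusted p = 0.0452, and chr9:77774965-77775465 without chow flox 1, adjusted p = 0.0357). These leave-one-out fits of the difference were chosen after seeing the data.

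Gclm, which encodes the modifier subunit of the same ligase, had the same signs as Gclc in sum, at smaller sizes; the 2 genes were not tested against each other. Its start interval (chr3:122245257-122245757) stood at 47.6, 40.8, 44.8 and 37.1 CPM in high-fat LKO livers and 42.4, 40.3, 42.3 and 45.4 CPM in high-fat flox livers. The genotypes were interleaved, and the log2 fold change was 0.001 (SE 0.10, edgeR adjusted p = 0.999). The sum over 7 intervals was 107 to 119 CPM in high-fat LKO livers and 116 to 122 CPM in high-fat flox livers (-0.08, SE 0.066, edgeR adjusted p = 0.747). On chow the sum over 6 intervals was 107 to 133 CPM in LKO livers and 110 to 131 CPM in flox livers (0.03, SE 0.10, edgeR adjusted p = 0.934). Its smallest high-fat p was 9.6 kb before the start, at chr3:122235687-122236187, with 4.72, 6.29, 8.75 and 6.94 CPM in LKO livers and 8.09, 8.87, 9.42 and 11.6 CPM in flox livers (-0.52, SE 0.20, edgeR adjusted p = 0.328). LKO 3 was the LKO library that reached the flox range there. The chow start interval averaged 47.3 ± 3.35 CPM in LKO livers and 43.6 ± 6.18 CPM in flox livers (0.12, SE 0.13). The smallest chow p of Gclm was at chr3:122246001-122246501, with 12.1 ± 3.45 CPM in LKO livers and 14.4 ± 2.29 CPM in flox livers (SD, n = 3 each; -0.24, SE 0.22, edgeR adjusted p = 0.820).

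Slc7a11, the cystine importer that supplies cysteine for glutathione, had 1 interval on each diet and none at its listed start. That interval (chr3:50381428-50381928 in the high-fat table) gave 5.90, 3.75, 5.35 and 6.44 CPM in high-fat LKO livers and 3.82, 3.71, 7.66 and 5.65 CPM in high-fat flox livers (log2 fold change 0.05, SE 0.26, edgeR adjusted p = 0.975). On chow it gave 5.65, 6.77 and 4.92 CPM in LKO livers and 6.0, 6.71 and 6.46 CPM in flox livers (-0.15, SE 0.19, edgeR adjusted p = 0.864). The libraries of both genotypes overlapped on both diets.

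The thioredoxin branch is represented by Txnrd1, the cytosolic thioredoxin reductase, and Srxn1, the sulfiredoxin that repairs oxidised peroxiredoxins. Txnrd1 summed to 138 to 143 CPM in high-fat LKO livers and 140 to 165 CPM in high-fat flox livers, with flox 4 as the high library (log2 fold change -0.08, SE 0.071, edgeR adjusted p = 0.779). On chow it summed to 162 to 169 CPM in LKO livers and 153 to 174 CPM in flox livers (0.03, SE 0.083, edgeR adjusted p = 0.906). The start shown above, which holds a core match, had the smallest chow p of the gene, with 24.9, 25.4 and 31.5 CPM in LKO livers and 21.6, 19.9 and 25.2 CPM in flox livers (0.29, SE 0.15, edgeR adjusted p = 0.752). The same start on the high-fat diet averaged 22.6 ± 3.0 CPM in LKO livers and 22.6 ± 3.24 CPM in flox livers (SD, n = 4 each). Srxn1 summed to 55.7 to 73.6 CPM in high-fat LKO livers and 57.2 to 68.0 CPM in high-fat flox livers (0.03, SE 0.089, edgeR adjusted p = 0.937). On chow it summed to 51.1 to 59.4 CPM in LKO livers and 46.7 to 55.2 CPM in flox livers (0.07, SE 0.097, edgeR adjusted p = 0.825). The groups of both genes overlapped on both diets. The highest Txnrd1 interval lay at another listed start, with 23.0 ± 3.48 CPM in high-fat LKO livers and 24.9 ± 2.46 CPM in high-fat flox livers (-0.12), and 27.6 ± 0.554 CPM in chow LKO livers and 26.8 ± 2.43 CPM in chow flox livers (0.04). The smallest high-fat p of Txnrd1 was 29.3 kb after that start, at chr10:82889410-82889910, with 7.37 ± 1.26 CPM in LKO livers and 9.88 ± 2.2 CPM in flox livers (-0.42, SE 0.20, edgeR adjusted p = 0.469). The start interval of Srxn1 averaged 24.8 ± 5.11 CPM in high-fat LKO livers and 23.4 ± 1.52 CPM in high-fat flox livers (0.08). Its highest chow interval, at chr2:152105479-152105979, also had its smallest chow p, with 31.9 ± 4.94 CPM in LKO livers and 28.8 ± 4.37 CPM in flox livers (0.15, SE 0.15, edgeR adjusted p = 0.839). The smallest high-fat p of Srxn1 was 9.6 kb after the start, with 3.99 ± 0.719 CPM in LKO livers and 3.03 ± 0.717 CPM in flox livers (0.40, SE 0.29, edgeR adjusted p = 0.699).

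Nqo1, a quinone reductase used as a marker of NRF2 activity, had 2 intervals on each diet. They summed to 18.3, 18.2, 18.3 and 22.9 CPM in high-fat LKO livers and 17.8, 19.8, 20.6 and 21.5 CPM in high-fat flox livers, so LKO 4 stood apart from the other LKO libraries and the groups overlapped (log2 fold change -0.04, SE 0.12, edgeR adjusted p = 0.951). On chow they summed to 26.3, 22.5 and 22.9 CPM in LKO livers and 21.0, 23.5 and 21.3 CPM in flox livers (0.13, SE 0.12, edgeR adjusted p = 0.748). The start interval of Nqo1 averaged 13.4 ± 3.18 CPM in high-fat LKO livers and 14.1 ± 1.19 CPM in high-fat flox livers (-0.08, SE 0.17, edgeR adjusted p = 0.934), and 16.6 ± 1.97 CPM in chow LKO livers and 15.6 ± 1.65 CPM in chow flox livers (0.09). The other chow interval, 2.9 kb before the start, had the smallest chow p, with 5.90 ± 0.511 CPM in LKO livers and 4.76 ± 1.04 CPM in flox livers (0.32, SE 0.22, edgeR adjusted p = 0.784). Hmox1, the inducible haem oxygenase, summed to 68.9 to 80.2 CPM in high-fat LKO livers and 69.8 to 88.3 CPM in high-fat flox livers (-0.06, SE 0.083, edgeR adjusted p = 0.885). On chow it summed to 75.6 to 86.0 CPM in LKO livers and 69.8 to 84.9 CPM in flox livers (0.12, SE 0.099, edgeR adjusted p = 0.732). Its highest interval, at the lower-coordinate end, averaged 21.0 ± 3.08 CPM in high-fat LKO livers and 22.6 ± 1.45 CPM in high-fat flox livers (-0.11), and 24.8 ± 3.39 CPM in chow LKO livers and 22.6 ± 3.06 CPM in chow flox livers (0.14). An interval about 2.5 kb outside the gene had its smallest p on both diets and opposite signs. It stood at 8.05, 11.3, 10.6 and 7.95 CPM in high-fat LKO livers and 11.8, 14.6, 10.9 and 14.4 CPM in high-fat flox livers (-0.46, SE 0.18, edgeR adjusted p = 0.312). On chow it stood at 19.7, 21.2 and 16.9 CPM in LKO livers and 12.9, 16.2 and 19.8 CPM in flox livers (0.23, SE 0.18, edgeR adjusted p = 0.796).

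Osgin1 carried both called member intervals, in the distal part of the gene on the high-fat diet. The first, chr8:119443497-119443997, 6.6 kb after the start, stood at 5.04, 6.40, 4.31 and 3.41 CPM in high-fat LKO livers and 6.86, 5.17, 18.0 and 15.9 CPM in high-fat flox livers. Flox 3 and flox 4 were the high libraries, while flox 1 and flox 2 lay near the LKO range and the groups overlapped. The LKO level was 0.425 of the flox level, a log2 fold change of -1.23 (SE 0.29, edgeR adjusted p = 0.0306). The second, chr8:119442193-119442693, 5.3 kb after the start, stood at 4.40, 8.49, 4.31 and 3.16 CPM in high-fat LKO livers and 7.53, 7.80, 13.4 and 13.5 CPM in high-fat flox livers. LKO 2 lay within the flox range, and the log2 fold change was -1.03 (SE 0.25, edgeR adjusted p = 0.0425). A library held 27 to 143 reads in the first interval and 25 to 117 in the second. Neither call remained without high-fat LKO 3, LKO 4, flox 3 or flox 4 (adjusted p 0.0973 to 0.227), and the second was also lost without LKO 1 (0.095). In these fits the log2 fold change was -1.19 to -0.94 for the first interval and -0.96 to -0.86 for the second. DESeq2 called the second (adjusted p = 0.0352) but not the first (log2 fold change -1.25, adjusted p = 0.268). Flox 3 and flox 4 are also the libraries that stood apart on the second principal component. On the first, high-fat LKO 3 and LKO 4 stood at 73.4 and 72.3, LKO 1 and LKO 2 at -4.98 and 12.2, and the flox libraries between -75.0 and 18.9. The part these positions have in the calls was not tested.

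**Figure D4:**
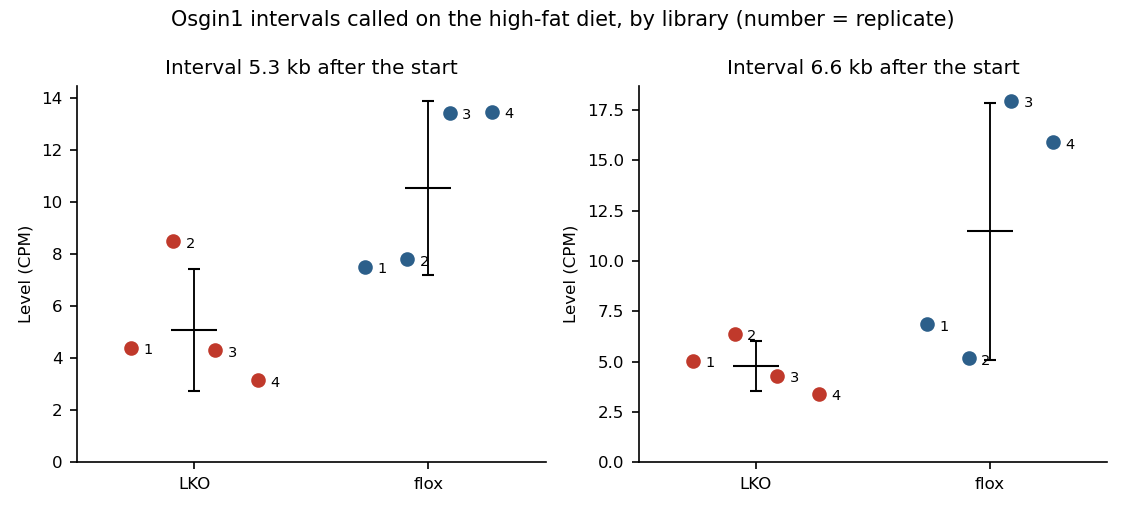
Levels (CPM) of the 2 Osgin1 intervals called on the high-fat diet, by library, LKO left of flox (n = 4 each); numbers are replicates, and black bars are the mean and SD. Flox 3 and flox 4 lie above all other libraries in both, at 13.4 to 18.0 CPM, while flox 1 and flox 2 lie at 5.17 to 7.80 CPM.

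Around these intervals the other log2 fold changes downstream of the start were also below 0 on the high-fat diet, without passing the test. All 7 intervals between 5 and 10 kb after the start were below 0 (median log2 fold change -0.82), 6 of them with an unadjusted p under 0.05, and so were all 7 between 0.5 and 5 kb (median -0.50, 5 of them at that p), and 2 of these 14 were called. The start interval (chr8:119436935-119437435), which overlaps the window shown above, stood at 30.7, 27.6, 30.7 and 28.7 CPM in high-fat LKO livers and 25.3, 26.9, 34.8 and 37.4 CPM in high-fat flox livers. The genotypes overlapped at the start, with a log2 fold change of -0.08 (SE 0.12, edgeR adjusted p = 0.898). More than 0.5 kb upstream of the listed start 9 of 12 intervals were below 0, with a median of -0.10. That start lies inside the RefSeq bounds of Osgin1, and the midpoint of the start interval was 11.3 kb from the lower-coordinate end. Intervals upstream of the listed start therefore include sites inside the bounds, which held 24 of the 28 high-fat intervals. Summed over 28 intervals Osgin1 stood at 306, 354, 274 and 249 CPM in high-fat LKO livers and 332, 339, 455 and 464 CPM in high-fat flox livers, a log2 fold change of -0.43 (SE 0.12, edgeR adjusted p = 0.169). The same pair of flox libraries was high, and LKO 2 exceeded the other pair.

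**Figure D5:**
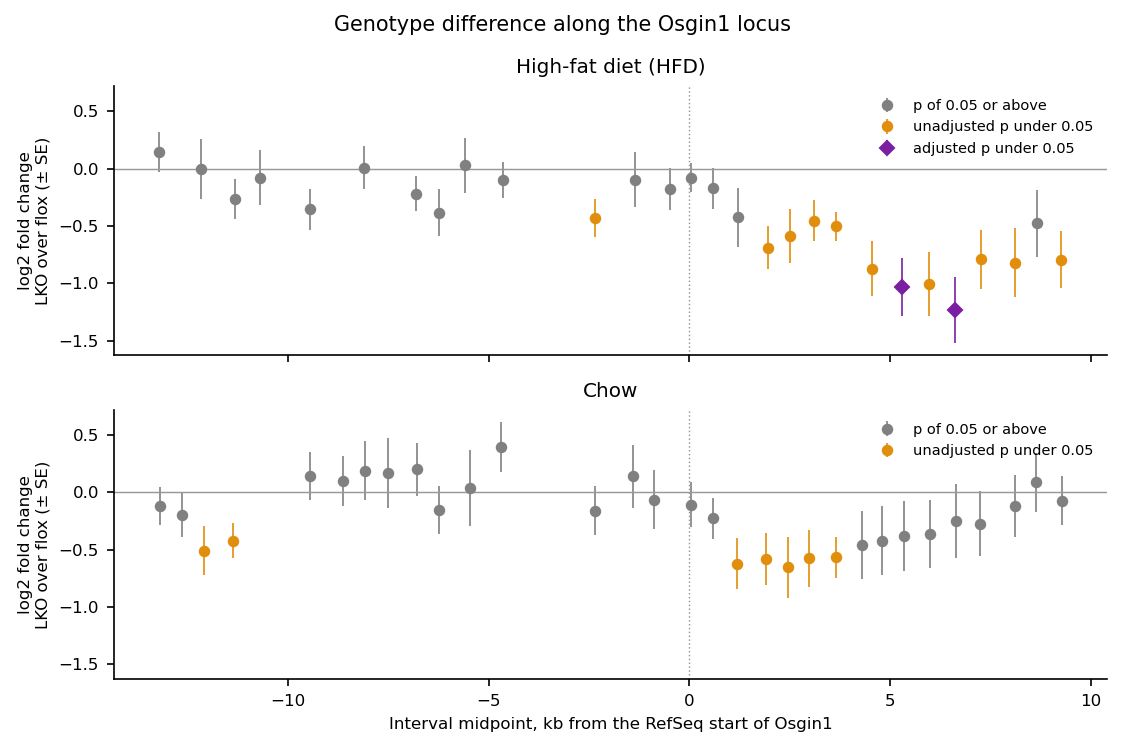
Log2 fold change of LKO over flox (± SE) for each Osgin1 interval against the distance of its midpoint from the RefSeq start, on the high-fat diet (top) and chow (bottom). Orange points have an unadjusted p under 0.05 and diamonds are called; on both diets the intervals from 0.5 to 5 kb after the start lie below 0 and the start interval lies near 0, and the called intervals lie at 5.3 and 6.6 kb on the high-fat diet.

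On chow Osgin1 was below 0 in 22 of 31 intervals. The 8 intervals between 0.5 and 5 kb after the start were all below 0 (median -0.57), 5 of them with an unadjusted p under 0.05, while those between 5 and 10 kb had a median of -0.25 with 0 at that p. The smallest chow p was at chr8:119440533-119441033, 3.6 kb after the start, with 61.7, 46.2 and 60.3 CPM in LKO livers and 110, 71.2 and 68.7 CPM in flox livers. Every LKO library lay below every flox library there, and the log2 fold change was -0.57 (SE 0.18, edgeR adjusted p = 0.539). The high-fat interval at that site (chr8:119440536-119441036) stood at 21.9, 29.8, 22.9 and 21.5 CPM in LKO livers and 31.9, 28.6, 37.6 and 38.5 CPM in flox livers. Only LKO 2 reached the flox range, and the log2 fold change was -0.50 (SE 0.13, edgeR adjusted p = 0.0533). The highest chow interval of Osgin1, 9.27 kb after the start at chr8:119446167-119446667, stood at 123, 73.4 and 110 CPM in LKO livers and 144, 84.7 and 94.4 CPM in flox livers (-0.07, SE 0.21, edgeR adjusted p = 0.945). At the site of the first called interval the chow level was 47.8, 24.1 and 45.8 CPM in LKO livers and 74.5, 34.1 and 31.7 CPM in flox livers, a log2 fold change of -0.25 (SE 0.32, edgeR adjusted p = 0.865). Flox 1 was the high chow library throughout this stretch. The summed chow level was 1268, 759 and 1122 CPM in LKO livers and 1759, 985 and 1005 CPM in flox livers (-0.25, SE 0.25, edgeR adjusted p = 0.770), and without flox 1 the log2 fold change was 0.08. The genotype effects of both diets on the Osgin1 sum differed by -0.17 (SE 0.28, edgeR adjusted p = 0.935), which does not show that they were alike. Osgin1 had a median level of 9.82 CPM per interval in the high-fat table and 31.5 CPM in the chow table. Each diet sits in its own table, the stated fast covers only the high-fat animals, and the chow libraries were deeper. Diet, table, feeding state and depth therefore cannot be told apart.

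Marker genes of hepatocytes and of other liver cells were read beside these differences. Hepatocyte markers summed to 4547, 4380, 3290 and 4556 CPM in high-fat LKO livers and 6010, 5485, 3382 and 4363 CPM in high-fat flox livers, so flox 3 and flox 4, in which Osgin1 was high, lay below the other flox libraries for hepatocyte markers. Of their 365 high-fat intervals 25 were called lower, 19 of them in Alb and 4 in Apob, and 1 was called higher. Over all 105801 high-fat intervals 321, or 0.303%, were called lower and 474 higher. The sums of 3 of the 8 genes, Cps1, Tat and Hnf4a, lay above 0. The interval called higher was also in Alb (log2 fold change 1.42, edgeR adjusted p = 8.96e-08) and had the smallest adjusted p of all high-fat intervals. LKO mice carry Albumin-Cre and flox mice do not, and the part this has in the Alb values was not tested. Kupffer cell and macrophage markers, with intervals at 11 of 12 genes and none at Timd4, summed to 185 to 209 CPM in high-fat LKO livers and 154 to 200 CPM in high-fat flox livers, and 10 of the 11 were above 0 with 0 called. On chow hepatocyte markers summed to 4427 to 5605 CPM in LKO livers and 4901 to 6482 CPM in flox livers, with 7 of 8 genes below 0. Of their 319 chow intervals 1 was called, higher and again in Alb (log2 fold change 1.29, edgeR adjusted p = 0.0410), where all chow intervals gave 0.0227%. Chow Kupffer cell markers, with intervals at 8 of 12 genes, summed to 79.2 to 115 CPM in LKO livers and 91.3 to 132 CPM in flox livers, with 7 of the 8 below 0. Sinusoidal endothelial markers had 9 of 10 genes below 0 on chow (394 to 483 CPM in LKO livers and 478 to 484 CPM in flox livers) and 6 of 10 on the high-fat diet (585 to 662 CPM in LKO livers and 598 to 684 CPM in flox livers). Of their 83 high-fat intervals 1 was called, lower and in Eng (log2 fold change -1.18, edgeR adjusted p = 0.0445). Neutrophil markers, with none at Retnlg, had 5 of 5 below 0 on chow (28.7 to 44.2 CPM in LKO livers and 38.3 to 56.0 CPM in flox livers) and 2 of 5 on the high-fat diet (41.3 to 51.7 CPM in LKO livers and 34.5 to 53.9 CPM in flox livers). Stellate cell markers had 6 of 9 below 0 on chow and 4 of 8 on the high-fat diet, cholangiocyte markers 2 of 3 on chow and 1 of 3 on the high-fat diet, and lymphocyte markers 1 of 3 on each diet. No gene of these lists was called by summed counts on either diet. The part of these markers in the Osgin1 and Gclc values was not tested.

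Beyond the members, 58 other genes of the pathway in 8 lists were read, of which 56 had an interval and Mafg and Gpx2 had none. On the high-fat diet 1 of 56 was called by summed counts, Gsta3, a glutathione S-transferase that conjugates electrophiles. It stood at 278, 231, 208 and 163 CPM in high-fat LKO livers and 381, 414, 375 and 458 CPM in high-fat flox livers. The genotypes did not overlap, and the log2 fold change was -0.89 (SE 0.12, edgeR adjusted p = 0.00137), with 19 of its 39 intervals called lower. Gsta3 has close relatives among the alpha-class transferases, and the labels do not say how reads shared between them were counted. On chow Gsta3 stood at 439, 302 and 393 CPM in LKO livers and 284, 299 and 284 CPM in flox livers, so LKO lay above flox (0.39, SE 0.13, edgeR adjusted p = 0.718). Abcc2, the canalicular export pump for glutathione conjugates, had 2 of 61 intervals called lower on the high-fat diet. It summed to 431, 498, 324 and 345 CPM in high-fat LKO livers and 675, 696, 408 and 538 CPM in high-fat flox livers (-0.54, SE 0.15, edgeR adjusted p = 0.160).

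The 8 lists had a median summed log2 fold change of -0.05 over 56 genes on the high-fat diet, with 35 below 0, and 0.05 on chow, with 23 below 0, where all genes had -0.001 and -0.005. The 9 glutathione S-transferases had 7 below 0 on the high-fat diet (median -0.23) and 0 below 0 on chow (median 0.18), and none was called on chow. The regulators of NRF2 had 4 of 9 below 0 on the high-fat diet (median 0.02), with Gsk3b at the smallest p (0.11, SE 0.069, edgeR adjusted p = 0.665), and 6 of 9 below 0 on chow, led by Btrc (-0.31, SE 0.094, edgeR adjusted p = 0.718). Gsk3b and Btrc encode a kinase and a ligase adaptor of a KEAP1-independent route of NRF2 degradation. In the glutathione, thioredoxin, NADPH, detoxification and iron lists no gene was called on either diet. The smallest high-fat p in each was at Gss, glutathione synthetase (-0.21), Sesn2, a sestrin (-0.14), Idh1, the cytosolic isocitrate dehydrogenase (-0.16), Ephx1, microsomal epoxide hydrolase (-0.15), and Ftl1, ferritin light chain (-0.35), with edgeR adjusted p between 0.205 and 0.630. On chow the smallest was at Slc3a2, the partner chain of SLC7A11 (-0.26), Txn2, mitochondrial thioredoxin (-0.59), Me1, malic enzyme (0.29), Aox1, aldehyde oxidase (0.53), Blvra, biliverdin reductase (0.17), and, among efflux transporters, Abcc4 (0.17), each at edgeR adjusted p = 0.718.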

How the data were processed

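Per the labels, nuclei of frozen mouse liver were transposed and sequenced in pairs. The authors deposited 1 table per diet of raw counts of reads per interval and library, unnormalized, on mm10. Per the submitters' processing notes, which give no roles, the tools included MACS2 2.2.7.1, HOMER 4.11, Bowtie2 2.4.2, Trim Galore 0.6.7, ChIPseeker, DESeq2 and bedtools. For duplicate and mitochondrial reads, the transposase offset and pooling before peak calling, the sources used here give no detail. Intervals were chosen on the libraries compared, so regions open in few animals may be missing, and the genotype an interval was called in can move with its difference.

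The tables were fitted separately in edgeR 4.0.16 (R 4.3.3) by the quasi-likelihood test for genotype, with TMM scaling and filterByExpr, which removed 0 intervals. The p-values were adjusted by Benjamini-Hochberg over every interval of the table, with a threshold of 0.05. Errors of fold changes are standard errors from the fit. Gene sums and the difference between diets were fitted the same way. Levels are CPM, with the SD over libraries where given, and sums use reads in intervals assigned to a gene. All positions are 1-based. DESeq2 1.42.0, its size factors in edgeR, other filters, a 10000 bp reach, 80% matching, left-out libraries and a replicate block were the alternatives. The fits were tested on simulated data.

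The members and lists were chosen with earlier results of these data known. All members were named, with their highest interval, their interval of smallest p and each called one, and of the other lists any called gene and the gene of smallest p; Gsta3 and Abcc2 fall under this rule, while other sites at Osgin1 and Gclc were named after their values were seen. No library was treated as a repeat, since any pair within a group had a chi-square of at least 2.49 per degree of freedom. High-fat columns match single samples; chow columns name only a genotype and a number. Every same-numbered chow pair deviated together (r of 0.184, 0.533 and 0.189 over intervals, above 0.1), so the numbers were taken as a possible pairing. However, LKO 1 lay closer to flox 3 (r of 0.278), and LKO 3 with flox 1 also gave 0.184. The pair at 0.533 held the shallowest libraries (15.5 and 17.1 M reads). Unless a block is named, chow errors, p-values and calls come from the fit without this pairing. With the number as a block 126 chow intervals were called, and 0 member intervals. Same-numbered high-fat pairs had r between -0.0105 and 0.177 and were not taken as paired.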

Additional observations from a re-analysis of the deposited data

Results flagged for a closer look

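In 58 group-wise checks of the high-fat libraries, in groups of 4, a library stood far from the other 3 in 2 cases, and chance alone flags about 1 in 20 such groups. The summed level of Nqo1 was 22.9 CPM in LKO 4, against 18.2 to 18.3 CPM in the other LKO libraries. The Gclc interval at the lower-coordinate end of the gene, chr9:77754320-77754820, stood at 31.7 CPM in LKO 4, against 25.2 to 25.5 CPM in the other LKO libraries. Neither gene was called with or without that library.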

How the results depend on the processing

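A member interval held a median of 65 reads per high-fat library, which limits single intervals, and the chow groups hold 3 animals each. The following counts moved by more than 1.5 times. Called chow intervals, 20 in all, became 544 by DESeq2, 333 without both chow libraries numbered 2, 126 with the replicate block and 0 to 604 with 1 library left out (0 without LKO 1 or flox 1, 604 without flox 2). Called high-fat intervals, 795 in all, became 1420 with the block and 304 to 1189 with 1 library left out (304 without LKO 4, 359 without LKO 3, 437 without flox 2 and 326 without flox 4). Called high-fat members, 2 in all, became 1 by DESeq2, 4 with the block and 0 to 7 with 1 library left out. High-fat library numbers are only names, and not every library deviated most closely with its own number. With the block, 1 member passed by summed counts, Osgin1 (adjusted p = 0.0415), and a Gclc interval passed (log2 fold change -1.27, adjusted p = 0.0439); the block changed no chow member call. The count of members that differed between diets, 0, became 1 without both chow libraries numbered 2 and 0 to 1 with 1 library left out. For these counts the cause was not tested. Gene sums within 10000 bp and the leave-one-out fits of the difference between diets were chosen after seeing the data.

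Values near 0 changed sign with 1 library left out, over these log2 ranges. On the high-fat diet these were the Gclc interval at the lower-coordinate end (-0.178 to 0.0397) and the start intervals of Gclm (-0.0581 to 0.0668, and -0.0034 with the block), Keap1 (-0.130 to 0.00758), Nqo1 (-0.217 to 0.0559), Osgin1 (-0.166 to 0.0292) and Srxn1 (-0.0380 to 0.198). Also among them were the Slc7a11 interval (-0.0857 to 0.290) and the sums of Keap1 (-0.0659 to 0.0149), Slc7a11 (-0.0837 to 0.281) and Srxn1 (-0.0353 to 0.0972). On chow they were the highest intervals of Gclc (-0.0468 to 0.203), Nqo1 (-0.0141 to 0.142), Osgin1 (-0.227 to 0.193) and Txnrd1 (-7.52e-05 to 0.120), and the sums of Gclm (-0.0360 to 0.108), Keap1 (-0.0869 to 0.105), Osgin1 (-0.406 to 0.0804) and Txnrd1 (-0.00552 to 0.0872). The difference between diets for Keap1 ran from -0.129 to 0.0653.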
